A study of Mus musculus with 10 samples.

Results

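Genes whose RNA peaks in the G2 phase and in mitosis were compared in Ly6Chigh monocytes sorted from the mouse spleen on day 5 after myocardial infarction (MI) or sham surgery. The 36 genes were chosen by symbol for their role, and all 36 were found, each as 1 row, in each of the 10 deposited tables, among 24421 gene symbols common to them. RNA sequencing had been done on 3 groups of male mice, 8 to 10 weeks old, namely wild type (WT, strain C57BL/6) mice after sham surgery, in which the chest was opened and no artery was tied (WT sham, replicates 1, 2 and 3), WT mice whose left anterior descending artery of the heart was tied for good (WT MI, replicates 2, 3 and 4), and Foxp3DTR mice after the same operation (Foxp3DTR MI, replicates 1 to 4). In Foxp3DTR mice the promoter of Foxp3 drives a human receptor for diphtheria toxin, so that diphtheria toxin removes cells with active Foxp3, which are mostly regulatory T cells (Tregs). The study reports that this depletion was partial in lymphoid organs, the spleen included. Each depleted mouse was given 500 ng of toxin 2 days and 1 day before surgery and 250 ng on day 2 after it, and every operated mouse received buprenorphine. The study describes toxin-treated WT mice as the comparison for Foxp3DTR mice after MI, while the labels carry the same protocol text for all samples and mark no WT library as treated or untreated. Foxp3DTR mice after sham surgery are not among these libraries, so that the comparison of Foxp3DTR MI with WT sham joins the receptor, the partial loss of Tregs and the infarction.

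Cells that divide switch on a common set of genes late in the cycle. Cyclins A and B activate the kinase Cdk1, Aurora and Polo kinases drive entry into mitosis, the kinetochore and its checkpoint hold sister chromatids until all are attached, the anaphase-promoting complex then marks cyclin B and securin for destruction, and kinesins and the central spindle separate the daughter cells. Ly6Chigh monocytes arise from dividing progenitors of the bone marrow and, when the spleen makes blood cells, of the splenic red pulp, and they are thought to leave the cycle as they mature. RNA from a sorted population is an average, so that more cells in cycle and more of these transcripts in each cell cannot be told apart.

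Libraries had been made from 20 to 50 pg of RNA. Depth, inferred from the coverage and FPKM columns for reads of 50 bp, lay between 3.13e+06 reads in WT sham replicate 2 and 8.40e+06 in WT MI replicate 3, with a median of 6.64e+06. Levels are given as scaled TPM, the deposited TPM (reads divided by gene length and brought to the same total in each library) divided by 1 factor for each library, and differences as log2 fold changes of scaled TPM + 1, with their standard errors (SE). The markers of the sorted cell were high in all libraries, with summed levels of 9 Ly6Chigh monocyte markers between 8249 and 13343 scaled TPM. Pearson's r between pairs of libraries, over log2(scaled TPM + 1) of all 24421 symbols, lay between 0.97 and 0.99. Genes at 0 in every library were included, which can raise r. The labels name no sequencing batch.

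All 36 genes were detected in all libraries, and 35 of them had at least 1 scaled TPM in each. Kif2c was the exception, with 0.75 in WT MI replicate 3. Summed over the 36 genes, the level was 310.4, 299.7 and 664 scaled TPM in WT sham replicates 1, 2 and 3. In WT MI it was 1062, 294 and 432 in replicates 2, 3 and 4. In Foxp3DTR MI it was 1252, 1433, 626 and 1264 in replicates 1 to 4. The highest sum was therefore 4.88 times the lowest, 3 of the 4 Foxp3DTR MI libraries stood above every WT library, and WT MI replicate 2 stood above Foxp3DTR MI replicate 3. The group means were 425 ± 207 in WT sham (SD, n = 3), 596 ± 410 in WT MI (SD, n = 3) and 1144 ± 355 in Foxp3DTR MI (SD, n = 4). The mean of Foxp3DTR MI was 1.92 times that of WT MI, 3.15 times without WT MI replicate 2 and 1.53 times without WT MI replicate 3. It was 2.69 times that of WT sham, and 3.75 times without WT sham replicate 3. The mean of WT MI was 1.4 times that of WT sham, 0.855 times without WT MI replicate 2 and 1.95 times without WT sham replicate 3.

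**Figure D1:**
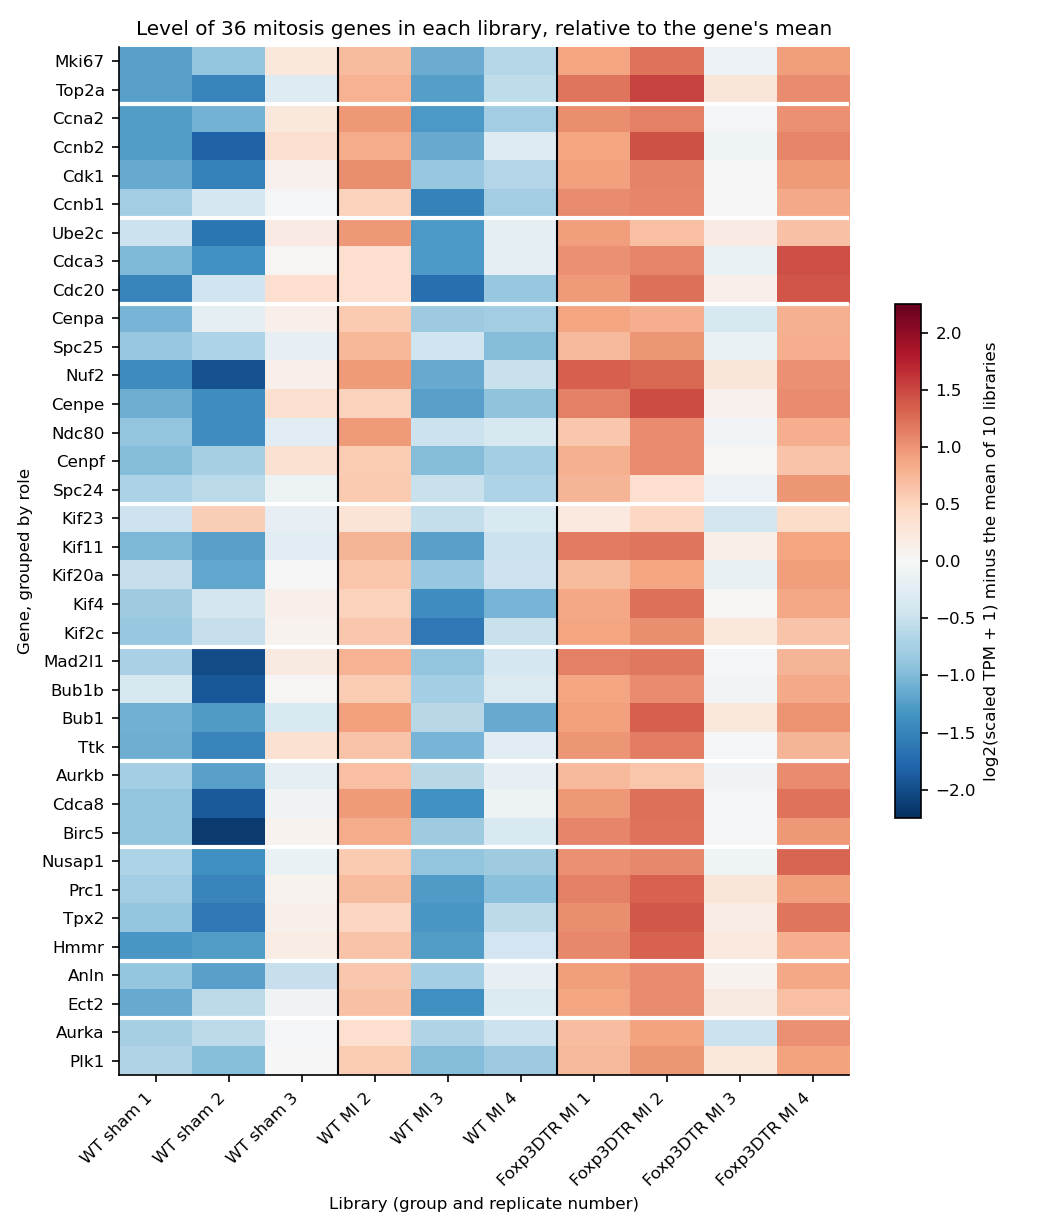
Heat map of the 36 mitosis genes (rows, grouped by role) in the 10 libraries (columns, in 3 groups divided by black lines). Colour gives log2(scaled TPM + 1) minus the mean of the gene over all libraries, red above and blue below that mean. Whole columns share a colour: WT MI replicate 2 is red like Foxp3DTR MI replicates 1, 2 and 4, while Foxp3DTR MI replicate 3 and WT sham replicate 3 are near 0.

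The genes moved together from library to library. The median deviation of the 36 genes from their own means, in log2 units, was -0.89, -1.24 and 0.057 in WT sham replicates 1, 2 and 3, and 0.64, -1.08 and -0.50 in WT MI replicates 2, 3 and 4. It was 0.93, 1.11, -0.012 and 0.94 in Foxp3DTR MI replicates 1 to 4. Over all genes tested, the same median stayed between -0.012 and 0.010 in every library. The library factor is itself a median over genes and sets this value near 0, so it is no separate observation. WT MI replicate 2 was the highest library of its group for 36 of 36 genes, against 34.4% of all 12938 genes tested, and its level was 3.01 times the mean of the other WT MI libraries in the median gene. WT sham replicate 3 was the highest of its group for 35 of 36 genes, against 33.2% of all genes, with a median ratio of 2.13. Foxp3DTR MI replicate 3 was the lowest of its group for 36 of 36 genes, against 23.0% of all genes, with a median ratio of 0.471. Its 36 genes lay above those of WT MI replicate 3 without exception, above those of WT MI replicate 4 in 34 cases, and below those of WT MI replicate 2 in all 36. Against WT sham replicate 3 it was higher in 18 and lower in the other 18. Over all libraries, the highest value stood in Foxp3DTR MI replicate 2 for 25 genes, in replicate 4 for 7 and in replicate 1 for 2, and the exceptions were Ube2c, highest in WT MI replicate 2, and Kif23, highest in WT sham replicate 2. For single genes, the highest library had between 2.19 times (Kif23) and 16.3 times (Birc5) the level of the lowest, with a median of 7.93 times.

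Genes of this set are known to share short promoter elements, the cell cycle genes homology region (CHR), to which the DREAM complex and its MuvB core bind, and CCAAT boxes, which bind NF-Y. Since the genes moved together, their promoters were read from RefSeq (GRCm38.p6), in windows from 250 bases before to 50 bases after the transcription start, which were found for 31 of the 36 genes. Ccna2, Aurkb, Kif20a, Tpx2 and Spc24 had no entry. TTTGAA or TTCGAA, the letters taken for a CHR, was present on either strand in 25 of 31 windows (80.6%), against 14.3% of 9402 windows of genes tested, and in 37 of 60 windows (61.7%) of other mitosis genes. Within 50 bases of the start, it stood in 23 of 31 windows (74.2%), against 3.64% of all those windows. CCAAT, on either strand, was present in 24 of 31 windows (77.4%) against 39.2%, in 2 or more copies in 58.1% against 15.1%, and together with a CHR in 71.0% against 6.12%. A match to a CHR overlapped a CCAAT in 1 window, that of Cdca8, and matches to CCAAT overlapped each other in that of Ube2c. The window lay 3852 bases from the annotated start used in the tables for Kif2c and 247 bases from it for Mad2l1, and at most 21 bases from it for the other 29. Nusap1, Birc5, Nuf2, Mad2l1, Cenpe and Ccnb1 had no CHR letters in this window. These matches are a description of the letters and no measurement of binding.

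These 4 stretches are those of the genes with the highest mean level among the windows with a CHR, shown so that the spacing of the elements can be read. They begin 250 bases before the start and end 30 bases into the transcript, 5′ to 3′ on the strand of the gene, with CHR and CCAAT letters of either strand in capitals. They lie at chr7:135716350-135716629 on the minus strand for Mki67, chr11:99024160-99024439 on the minus strand for Top2a, chr9:70421525-70421804 on the minus strand for Ccnb2, and chr2:164769679-164769958 on the plus strand for Ube2c.
Mki67: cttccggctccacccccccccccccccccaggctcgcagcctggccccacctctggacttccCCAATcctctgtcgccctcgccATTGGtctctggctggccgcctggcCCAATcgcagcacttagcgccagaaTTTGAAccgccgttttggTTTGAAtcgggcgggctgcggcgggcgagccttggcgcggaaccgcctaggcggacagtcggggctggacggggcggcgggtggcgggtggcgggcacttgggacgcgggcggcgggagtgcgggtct
Top2a: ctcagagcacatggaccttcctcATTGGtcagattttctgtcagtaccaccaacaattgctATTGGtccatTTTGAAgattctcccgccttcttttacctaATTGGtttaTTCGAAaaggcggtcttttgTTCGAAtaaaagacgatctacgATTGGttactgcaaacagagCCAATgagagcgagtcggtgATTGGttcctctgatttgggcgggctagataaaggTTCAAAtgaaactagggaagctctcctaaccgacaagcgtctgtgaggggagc
Ccnb2: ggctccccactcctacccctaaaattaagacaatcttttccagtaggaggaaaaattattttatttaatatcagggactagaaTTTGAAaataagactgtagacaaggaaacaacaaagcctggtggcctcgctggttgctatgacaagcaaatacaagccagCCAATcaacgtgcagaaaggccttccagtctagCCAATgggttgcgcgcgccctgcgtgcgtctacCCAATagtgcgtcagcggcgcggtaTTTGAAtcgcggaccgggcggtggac
Ube2c: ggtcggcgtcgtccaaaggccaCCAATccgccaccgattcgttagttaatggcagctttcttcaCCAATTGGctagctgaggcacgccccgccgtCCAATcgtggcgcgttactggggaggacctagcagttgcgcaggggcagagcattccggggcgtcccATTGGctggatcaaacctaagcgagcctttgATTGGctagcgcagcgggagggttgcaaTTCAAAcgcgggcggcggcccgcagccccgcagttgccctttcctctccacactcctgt

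In Mki67, the CHR letters began 116 and 98 bases before the start, behind 3 CCAAT boxes. Top2a had 4 CHR matches, the nearest 23 bases before the start, and 6 CCAAT boxes on both strands. Ccnb2 had 2 CHR matches, which began 167 bases before the start and 4 bases after it. Its 3 CCAAT boxes stood 87, 54 and 21 bases before the start. Ube2c had 1 CHR, 29 bases before the start, and 6 CCAAT matches, of which those at 186 and 183 bases before the start share bases, being read on opposite strands.

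The gene with the highest level was Mki67 (chr7:135689788-135716379, minus strand), which codes for the protein Ki-67 that coats mitotic chromosomes and is a common marker of dividing cells. It was at 48.7, 61.1 and 136 scaled TPM in WT sham, at 189, 52.4 and 73 in WT MI, and at 213, 267, 104 and 220.4 in Foxp3DTR MI, in the order of the replicates. It made up between 15.7% and 20.4% of the summed level of the 36 genes in each library. Top2a (chr11:98992947-99024189, minus strand), the topoisomerase that untangles sister chromatids, was next. Top2a was at 20.9, 17.0 and 40.6 in WT sham, at 86.6, 20.7 and 33.3 in WT MI, and at 117, 145, 60.9 and 105 in Foxp3DTR MI. All 4 Foxp3DTR MI values of Top2a were above the 3 of WT sham, while Foxp3DTR MI replicate 3 was below WT MI replicate 2. The mean level over all libraries was under 10 scaled TPM for 10 of the 36 genes.

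Among the cyclins, Ccna2 was the highest, with group means of 26.6 ± 16.9 scaled TPM in WT sham (SD, n = 3), 38.3 ± 34.0 in WT MI (SD, n = 3) and 71.6 ± 22.4 in Foxp3DTR MI (SD, n = 4). Its locus overlaps that of Exosc9, so that reads of both may mix if strand was not used. Ccnb2 had means of 19.8 ± 17.0, 31.0 ± 21.6 and 59.0 ± 23.3 in the same order and with the same n. Ccnb1 (chr13:100778739-100786486, minus strand), the cyclin whose destruction ends mitosis, was at 3.21, 4.52 and 6.06 in WT sham, at 9.39, 1.54 and 3.21 in WT MI, and at 14.3, 14.5, 6.33 and 12.2 in Foxp3DTR MI. Its Foxp3DTR MI values all lay above those of WT sham, the closest pair being 6.33 and 6.06. Cdk1, the kinase these cyclins activate, was at 2.58, 1.73 and 7.30 in WT sham, at 15.2, 3.33 and 3.93 in WT MI, and at 13.9, 16.0, 6.79 and 14.2 in Foxp3DTR MI. For Cdk1 the groups overlapped in every comparison.

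**Figure D2:**
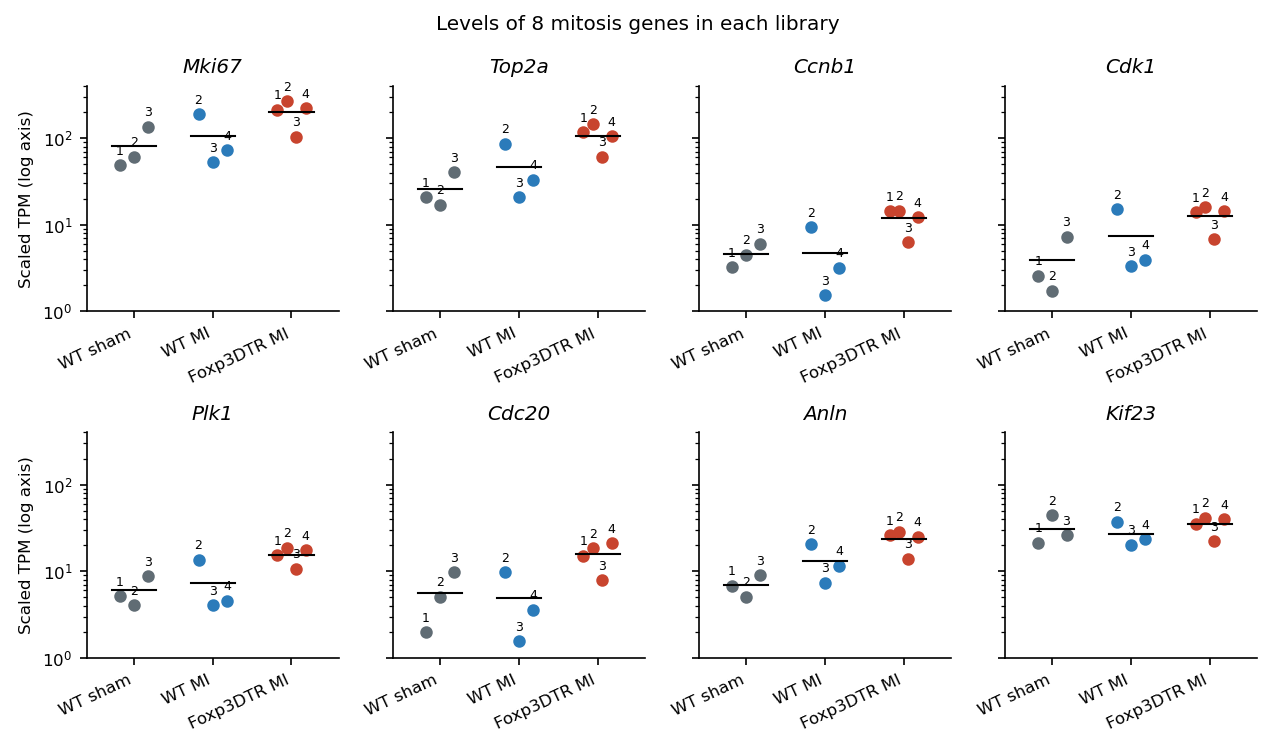
Scaled TPM (log axis) of 8 mitosis genes in each library, by group. Points are libraries with their replicate number and the black line is the group mean. WT MI replicate 2 lies far above WT MI replicates 3 and 4 for Mki67, Top2a, Ccnb1, Cdk1, Plk1 and Cdc20, and Kif23 spans a narrow range with its highest value in WT sham replicate 2.

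Plk1 (chr7:122159437-122169875, plus strand), the Polo kinase of mitotic entry, was at 5.17, 4.06 and 8.83 in WT sham, at 13.6, 4.04 and 4.59 in WT MI, and at 15.4, 18.7, 10.7 and 17.4 in Foxp3DTR MI. WT MI replicate 2 was thus the only WT library that reached into the range of Foxp3DTR MI. Aurka, the Aurora kinase of the spindle poles, had lower contrast, with means of 6.74 ± 2.12 (SD, n = 3), 8.08 ± 3.75 (SD, n = 3) and 15.1 ± 6.12 (SD, n = 4) in WT sham, WT MI and Foxp3DTR MI. The chromosomal passenger genes Aurkb, Birc5 and Cdca8, whose products correct faulty attachments, summed to 24.1, 13.1 and 41.9 in WT sham, to 81.1, 23.8 and 38.9 in WT MI, and to 86.9, 92.6, 43.3 and 99.6 in Foxp3DTR MI. Birc5, which codes for survivin, had the widest range of all 36 genes, from 1.57 in WT sham replicate 2 to 25.7 in Foxp3DTR MI replicate 2.

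The checkpoint genes Bub1, Bub1b, Mad2l1 and Ttk, whose products delay anaphase, summed to 27.4, 10.8 and 50.6 in WT sham, to 80.7, 24.7 and 33.6 in WT MI, and to 99.1, 111, 47.3 and 86.5 in Foxp3DTR MI. Of these, Bub1 alone had Foxp3DTR MI values, 13.1, 18.1, 7.99 and 14.1, that all exceeded WT sham, at 2.53, 2.09 and 4.88. Of all genes tested, 9.80% were higher without overlap in that comparison. Cdc20 (chr4:118432901-118437343, minus strand), the activator of the anaphase-promoting complex, was at 1.97, 5.08 and 9.79 in WT sham, at 9.70, 1.55 and 3.60 in WT MI, and at 15.2, 18.6, 7.92 and 21.0 in Foxp3DTR MI. Its locus overlaps that of Elovl1. Ube2c, the ubiquitin-conjugating enzyme of the same complex, was at 21.1, 8.86 and 34.0 in WT sham, at 59.7, 11.7 and 25.9 in WT MI, and at 58.3, 48.2, 34.1 and 48.1 in Foxp3DTR MI. Cdca3, which promotes mitotic entry, had means of 13.2 ± 7.46 (SD, n = 3), 18.3 ± 10.02 (SD, n = 3) and 42.7 ± 17.1 (SD, n = 4) in WT sham, WT MI and Foxp3DTR MI.

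The 7 centromere and kinetochore genes were Cenpa, the histone of the centromere, Cenpe and Cenpf, and the Ndc80 complex genes Ndc80, Nuf2, Spc24 and Spc25, which bind microtubules. Their sums were 36, 45.6 and 84.1 in WT sham, 133, 43.3 and 45.4 in WT MI, and 155, 167, 73.3 and 150.1 in Foxp3DTR MI. Nuf2 was at 2.72, 1.54 and 9.70 in WT sham, at 18.2, 3.52 and 5.99 in WT MI, and at 24.2, 23.2, 10.96 and 19.1 in Foxp3DTR MI. Cenpa varied less, with means of 23.9 ± 9.31 in WT sham (SD, n = 3), 26.2 ± 16.5 in WT MI (SD, n = 3) and 45.9 ± 15.4 in Foxp3DTR MI (SD, n = 4). The spindle binders Nusap1, Prc1, Tpx2 and Hmmr summed to 23.8, 14.7 and 47.5 in WT sham, to 72.9, 18.9 and 27.0 in WT MI, and to 102, 117, 50.8 and 105 in Foxp3DTR MI. All 4 of them had Foxp3DTR MI values above all WT sham values, against 9.80% of all genes tested.

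Kinesins move chromosomes and spindle poles along microtubules. Kif4 (chrX:100626065-100727271, plus strand), which condenses chromosome arms and shapes the central spindle, was at 2.98, 4.19 and 6.49 in WT sham, at 8.89, 1.64 and 2.36 in WT MI, and at 11.6, 15.2, 6.01 and 11.7 in Foxp3DTR MI. Kif23 (chr9:61917278-61946799, minus strand), a motor of the central spindle, was at 21.4, 44.3 and 26.3 in WT sham, at 37.5, 20.3 and 23.4 in WT MI, and at 35.3, 41.6, 22.3 and 40.1 in Foxp3DTR MI. Its highest value stood in WT sham replicate 2, where 20 of the 36 genes were at their lowest and which had the fewest reads. Once the library median was taken off, Kif23 left the largest residuals, with an SD of 0.76 on the log2 scale, followed by Cdc20 with 0.46 and Cenpa with 0.40. The cytokinesis genes Anln (chr9:22331214-22389206, minus strand), which codes for the cleavage furrow protein anillin, and Ect2, which activates RhoA there, closed the set. Anln was at 6.80, 5.07 and 8.95 in WT sham, at 20.5, 7.37 and 11.5 in WT MI, and at 26.1, 28.5, 13.9 and 25.1 in Foxp3DTR MI, so that its lowest Foxp3DTR MI value was clear of the highest WT sham value.

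To study Treg depletion after MI, Foxp3DTR MI was compared with WT MI. These groups differ in the receptor as well as in Tregs, and the labels do not tell whether WT MI mice received toxin. The parts of these in any difference cannot be told apart. The log2 fold change was positive for 36 of 36 genes, against 50.1% of all genes tested, with a median of 1.04 and a range from 0.36 (Kif23) to 1.66 (Cdc20). The median over all genes was 7.98e-04, which the library factors hold near 0. Without these factors, 75.7% of all genes and 36 of the 36 genes had a positive fold change. None of the 36 genes passed an adjusted p of 0.05 in limma with Benjamini-Hochberg adjustment over 12938 genes, while 0.688% of all genes were called higher in this comparison. At an unadjusted p under 0.05, 18 of 36 genes were higher and 0 lower, against 9.31% of all genes that were higher. The 4 genes of lowest p were Kif4 (log2 fold change 1.38, SE 0.45, adjusted p = 0.157), Cdc20 (1.66, SE 0.54, adjusted p = 0.157), Ccnb1 (1.36, SE 0.44, adjusted p = 0.159) and Plk1 (1.13, SE 0.38, adjusted p = 0.166), all from limma. The groups were free of overlap for 0 of 36 genes, against 9.97% of all genes that were higher without overlap, because WT MI replicate 2 exceeded Foxp3DTR MI replicate 3 throughout. Median fold changes by role lay between 0.87 for the kinetochore genes and 1.31 for the spindle binders, where 4 of 4 genes had an unadjusted p under 0.05. Without WT MI replicate 2, the median of the 36 genes was 1.57 and 35 were higher at an unadjusted p under 0.05, against 10.2% of all genes. Without WT MI replicate 3 it was 0.67 and 0 were, against 7.69% of all genes, without replicate 4 it was 0.92 and 6 were, against 7.14%, and in all 3 cases 0 genes passed the adjusted threshold. Leaving out Foxp3DTR MI replicate 3 gave a median of 1.3 with 30 genes higher at an unadjusted p under 0.05, against 1093 of 12856 over all genes, and leaving out replicate 1, 2 or 4 gave 9, 9 and 10 such genes, against 7.61%, 6.48% and 7.73%. The 36 tests rest on the same libraries and are not independent.

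**Figure D3:**
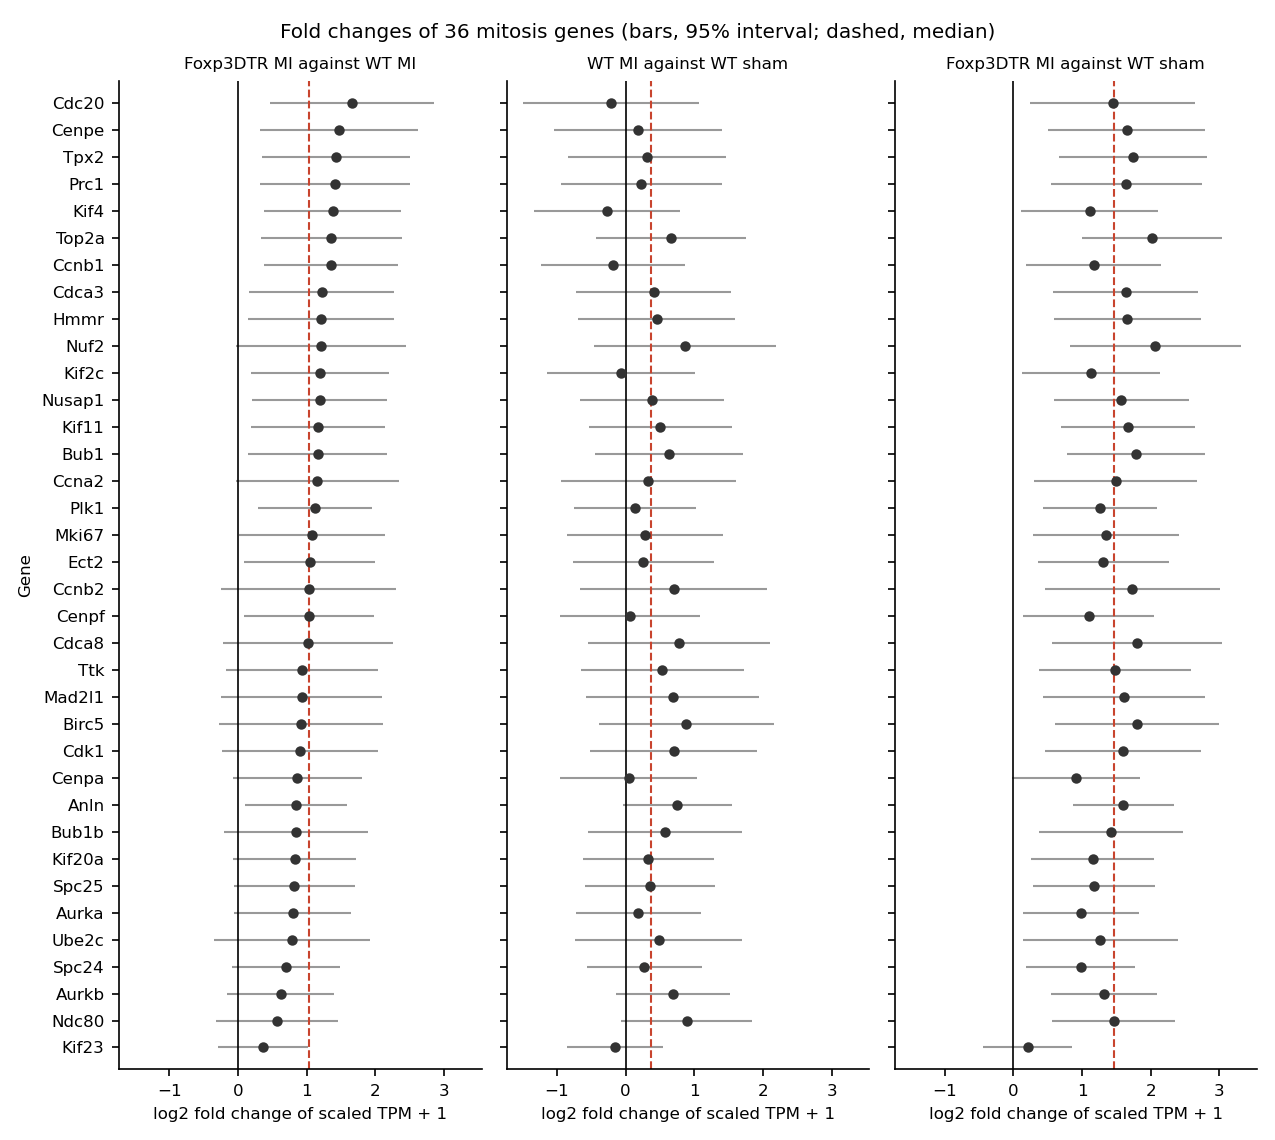
Log2 fold changes of the 36 mitosis genes (rows) in 3 comparisons, with 95% intervals from limma (bars) and the median of the 36 genes (dashed line). Points lie right of 0 for 36 genes in Foxp3DTR MI against WT MI and in Foxp3DTR MI against WT sham, and for 31 in WT MI against WT sham, where every interval includes 0.

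The effect of MI in WT mice was read from WT MI against WT sham. The log2 fold change was positive for 31 of 36 genes, against 49.6% of all genes tested, with a median of 0.37 and a range from -0.27 (Kif4) to 0.89 (Ndc80), and the median over all genes was -0.00183. In limma, 0 of 36 genes passed the adjusted threshold and 0 had an unadjusted p under 0.05. Of all genes, 0.00% were called higher at the adjusted threshold and 2.20% had a higher level at an unadjusted p under 0.05. No gene of the 36 was free of overlap between the groups, against 3.18% of all genes that were higher without overlap. The lowest p values belonged to Anln (log2 fold change 0.75, SE 0.36), Ndc80 (0.89, SE 0.43), Aurkb (0.69, SE 0.38) and Birc5 (0.88, SE 0.57), each with an adjusted p of 0.960 in limma. Among the 5 genes with a negative value, the 4 of lowest p were Kif4 (-0.27, SE 0.48), Kif23 (-0.16, SE 0.32), Ccnb1 (-0.19, SE 0.47) and Cdc20 (-0.21, SE 0.58), and Kif2c (-0.070, SE 0.49) was the other. Intervals were wide, as for Mki67, where the 95% interval ran from -0.86 to 1.41. Without WT MI replicate 2, the fold change was positive for 14 of 36 genes, against 50.1% of all genes. The median of the 36 genes was -0.097 without that library, 0.79 without WT MI replicate 3 and 0.78 without WT sham replicate 3.

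Foxp3DTR MI was further compared with WT sham, with which it shares neither genotype nor surgery. The log2 fold change was positive for 36 of 36 genes, against 49.0% of all genes tested, with a median of 1.47 and a range from 0.21 (Kif23) to 2.07 (Nuf2), beside a median of -0.00899 over all genes. Again 0 of 36 genes passed the adjusted threshold in limma, while 0.386% of all genes were called higher. At an unadjusted p under 0.05, 34 of 36 genes were higher, all but Cenpa and Kif23, against 10.2% of all genes. Closest to the threshold were Anln (log2 fold change 1.60, SE 0.33, adjusted p = 0.0726), Top2a (2.02, SE 0.46, adjusted p = 0.0857), Bub1 (1.79, SE 0.46, adjusted p = 0.103) and Kif11 (1.67, SE 0.44, adjusted p = 0.112), in limma. All 4 Foxp3DTR MI libraries were above all 3 WT sham libraries for 18 of 36 genes, against 9.80% of all genes. These 18 were Anln, Aurkb, Bub1, Ccnb1, Cdca8, Ect2, Hmmr, Kif11, Kif2c, Ndc80, Nuf2, Nusap1, Plk1, Prc1, Spc25, Top2a, Tpx2 and Ube2c. Without WT sham replicate 3, which had the highest levels of its group, the call was different: 15 of 36 genes were higher at an adjusted p under 0.05 in limma, against 3.23% of all genes (412 of 12772), the lowest adjusted p being 0.0239 for Nuf2 (log2 fold change 2.67, SE 0.52), and the median was 1.84. With WT sham replicate 3 in place, every other alternative tried gave 0 genes. The comparisons with WT MI and with WT sham share the Foxp3DTR MI libraries and are not independent of each other.

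**Figure D4:**
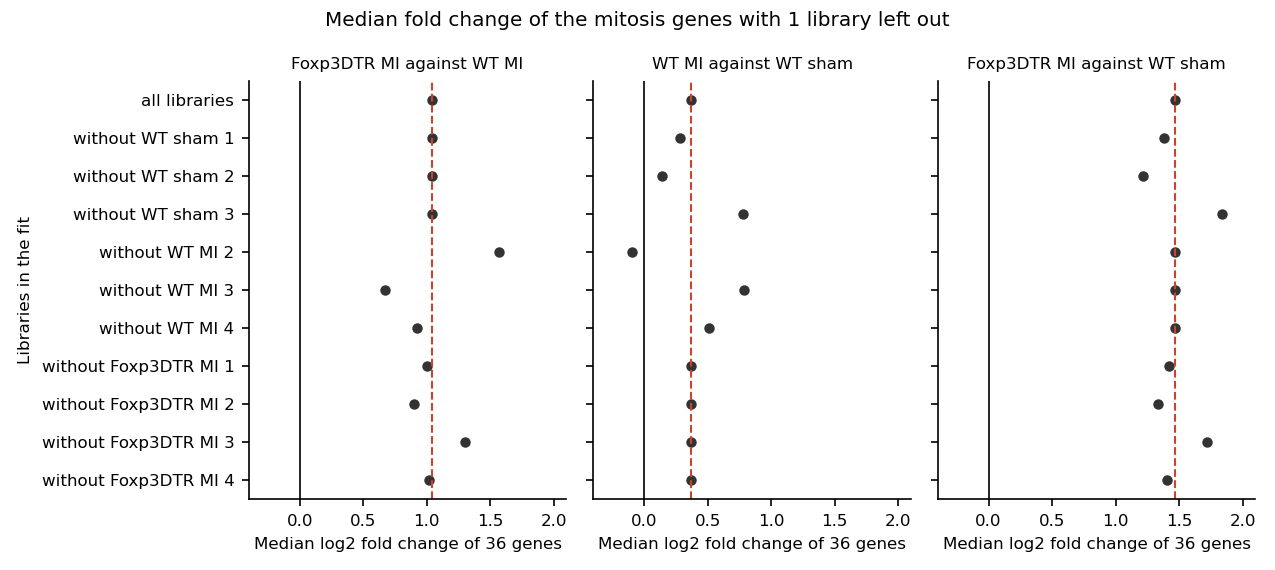
Median log2 fold change of the 36 mitosis genes in 3 comparisons, with all libraries (top, dashed line) and with each library left out in turn. The median of WT MI against WT sham runs from -0.097 to 0.79, and that of Foxp3DTR MI against WT MI from 0.67 to 1.57, according to which WT MI library is absent.

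Other genes of the cell cycle were then described from lists that the 36 genes do not enter. Of 79 other mitosis genes tested, such as condensins and further centromere proteins, 0 passed the adjusted threshold in limma in any comparison. In Foxp3DTR MI against WT MI, 76 of 79 had a positive fold change, against 50.1% of all genes, with a median of 0.87. At an unadjusted p under 0.05, 40 were higher, against 9.31% of all genes. In WT MI against WT sham, 62 were positive, against 49.6% of all genes, with a median of 0.21. At an unadjusted p under 0.05, 0 were higher, against 2.20% of all genes. In Foxp3DTR MI against WT sham, 75 were positive, against 49.0% of all genes, with a median of 1.22. At an unadjusted p under 0.05, 58 were higher, against 10.2% of all genes. The lowest p values in Foxp3DTR MI against WT MI belonged to the motor genes Kif22 (log2 fold change 1.43, SE 0.35, adjusted p = 0.0753 in limma) and Kifc1 (1.25, SE 0.38), the abscission gene Cep55 (1.57, SE 0.44) and the centromere gene Cenpw (1.12, SE 0.34). WT MI replicate 2 was the highest of its group for 73 of these 79 genes, against 34.4% of all genes. Foxp3DTR MI replicate 3 was the lowest of its group for 69, against 23.0% of all genes. Among the 30 S phase genes, which copy DNA, WT MI replicate 2 was the highest of its group for 27. Foxp3DTR MI replicate 3 was the lowest of its group for 28, both beside the same shares of all genes. Their fold changes in Foxp3DTR MI against WT MI were positive for 30 of 30, against 50.1% of all genes, with a median of 0.89. In limma, 0 passed the adjusted threshold. At an unadjusted p under 0.05, 12 were higher, among them Mcm3, Mcm4, Prim1 and Pola1, against 9.31% of all genes.

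The 9 G1 cyclins, kinases and factors summed to between 425 and 472 scaled TPM in WT sham, between 358 and 452 in WT MI and between 387 and 473 in Foxp3DTR MI, of which Ccnd3 alone made up 53.2% to 62.7%. Their median fold change was 0.50 in Foxp3DTR MI against WT MI and -0.40 in WT MI against WT sham, with 0 of 9 past the adjusted threshold in limma in either. At an unadjusted p under 0.05, 5 were higher in the first, against 9.31% of all genes. At the same level, 1 was lower in the second, against 316 of 12938 genes. The lowest p values against WT MI were those of E2f3 (log2 fold change 0.90, SE 0.23), Ccnd2 (1.55, SE 0.47), Ccnd1 (0.79, SE 0.27) and Myc (0.88, SE 0.31). Of the CDK inhibitors and pocket proteins, which hold cells back from S phase, 8 were tested, with medians of 0.011, 0.15 and 0.045 in Foxp3DTR MI against WT MI, WT MI against WT sham and Foxp3DTR MI against WT sham. Rbl1, which codes for p107, rose in Foxp3DTR MI against WT sham by 0.70 on the log2 scale (SE 0.12, adjusted p = 0.0433 in limma). In that comparison 0.386% of all genes were called higher, and Rbl1 was the only gene of these 5 lists past the threshold in any comparison. It kept that call under 5 of 19 alternatives, with adjusted p between 0.0213 and 0.133 in limma. Rbl1 was at 36.7, 28.4 and 34.7 scaled TPM in WT sham, at 44.0, 41.9 and 36.9 in WT MI and at 56.4, 59.3, 49.1 and 53.5 in Foxp3DTR MI, without overlap between Foxp3DTR MI and either other group. Of all genes, 9.97% were higher without overlap against WT MI and 9.80% against WT sham. The subunits of DREAM and MuvB, complexes that bind the CHR, had medians of 0.036, -0.092 and 0.084 over 9 genes, with 0 past the adjusted threshold in limma. Lin9 (0.54, SE 0.18) and Lin54 (0.45, SE 0.15) had the lowest p values against WT MI. In that comparison 3 of 9 were higher at an unadjusted p under 0.05, against 9.31% of all genes.

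**Figure D5:**
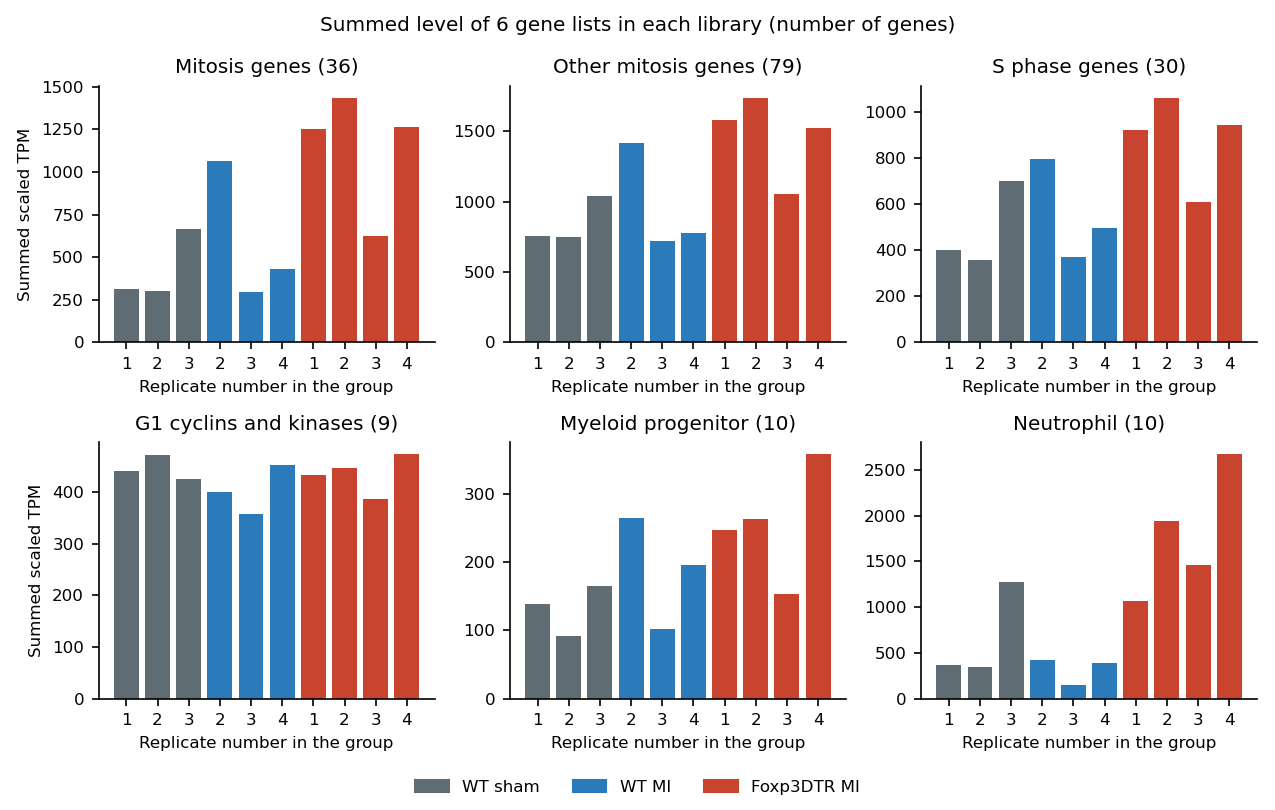
Summed scaled TPM (bars, from 0) of 6 gene lists in each library, coloured by group. For the 36 mitosis genes, 79 other mitosis genes and 30 S phase genes, replicate 2 is the highest of WT MI. For the same 3 lists, replicate 3 is the lowest of Foxp3DTR MI. The sum of the 9 G1 genes is nearly level, but Ccnd3 makes up 53.2% to 62.7% of it, so it hides changes of the others. The 10 myeloid progenitor and 10 neutrophil markers are highest in Foxp3DTR MI replicate 4.

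Markers of other cells were measured in the same libraries, in which the sort had taken cells positive for CD11b, F4/80 and CD115 and negative for Ly6G, a neutrophil marker. The 10 myeloid progenitor markers, led by Prtn3, summed to 138, 92.1 and 165 scaled TPM in WT sham, to 265, 103 and 196 in WT MI, and to 247, 263, 153 and 358 in Foxp3DTR MI. In this sum, as for the mitosis genes, WT sham replicate 3 and WT MI replicate 2 were the highest of their groups. Foxp3DTR MI replicate 3 was the lowest of its own. Not every marker had this order. Kit was lowest of WT MI in replicate 2, Flt3 lowest of WT sham in replicate 3, and Cebpe highest of Foxp3DTR MI in replicate 3. In limma, 0 of 10 passed the adjusted threshold in Foxp3DTR MI against WT MI. At an unadjusted p under 0.05, 3 were higher and 1 lower, against 1205 and 1090 of 12938 genes tested. Kit and Cd34, which define early progenitors, were above 0 in all libraries and at most 3.86 and 2.12 scaled TPM, and Ms4a3 and Gfi1 were listed at 0 in WT MI replicate 4. The 10 neutrophil markers, led by S100a8, summed to between 341 and 1278 in WT sham, between 151 and 423 in WT MI and between 1072 and 2668 in Foxp3DTR MI. Camp, Ngp and S100a9 of this list were higher in Foxp3DTR MI than in WT MI. These were 3 of 10 past the adjusted threshold in limma, against 0.688% of all genes called higher. Each kept that call under at least 12 of 19 alternatives. Camp and Ltf were listed at 0 in WT MI replicates 3 and 4, and Retnlg in all 3 WT MI libraries.

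Erythroid markers (10 genes) summed to between 12.9 and 221 in WT sham, with the highest value in replicate 3, to between 7.89 and 15.2 in WT MI and to between 14.4 and 39.5 in Foxp3DTR MI, and Hbb-bt was listed at 0 in all libraries. The 9 T cell markers found summed to between 17.6 and 151, between 15.7 and 18.3, and between 36.6 and 119 in the same order, with the highest value again in WT sham replicate 3, and Cd3e was listed at 0 in WT MI replicate 4 and Cd3g in WT MI replicate 2. The NK cell markers (8 genes) ranged from 56.4 to 199, from 39.6 to 75.9 and from 95.4 to 199.7. Of these, Klrk1 was called higher in Foxp3DTR MI than in WT MI (1 of 8 in limma, against 0.688% of all genes). It kept that call under 11 of 19 alternatives. Plasma cell markers (7 genes) ranged from 351 to 684, from 410.5 to 483 and from 472 to 555, of which Xbp1, which monocytes express too, made up 60.8% to 87.6%, and Tnfrsf17 was listed at 0 in 7 libraries. Jchain, the joining chain of secreted antibodies, was at 6.03, 11.3 and 201 in WT sham, at 13.6, 3.91 and 11.02 in WT MI and at 42.0, 92.9, 28.2 and 73.1 in Foxp3DTR MI, so that all 4 Foxp3DTR MI libraries lay above all 3 WT MI libraries and WT sham replicate 3 above them all. The summed B cell markers (8 genes) ranged from 8.96 to 28.2 over all libraries and the dendritic cell markers (8 genes) from 165 to 269, both with their lowest value in Foxp3DTR MI. Cd79b was lower in Foxp3DTR MI than in WT MI (1 of 4 B cell genes tested in limma, and under 8 of 19 alternatives). It was also lower than in WT sham (log2 fold change -0.92, SE 0.16, adjusted p = 0.0450 in limma, and under 5 of 19 alternatives). Of all 12938 genes, 56 and 20 were called lower in these comparisons. Pax5 was listed at 0 in 6 libraries. The part of progenitors, neutrophils or other cells in the levels of the mitosis genes was not tested.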

How the data were processed

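Ly6Chigh monocytes had been sorted by flow cytometry from spleens after magnetic depletion of T and B cells, and 10 libraries (WT sham, n = 3; WT MI, n = 3; Foxp3DTR MI, n = 4) had been sequenced. According to the submitters' notes, reads passed through CASAVA 1.4, cutadapt 1.1, STAR 2.5 and StringTie 1.3.0, on build mm10. The authors deposited for each library the coverage (a signal), the FPKM and the TPM of each gene. FPKM and coverage as deposited served only to infer depth, since no counts are given, and depth is approximate. Groups and replicate numbers came from the labels. For its heat map of Foxp3DTR and WT mice, the study gives n = 4 animals per group, while WT MI has n = 3 libraries here. The labels do not tie libraries to animals, and p-values measure the spread between these libraries. No column of other samples was present (0).

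TPM was summed by symbol, divided by a median-of-ratios factor for each library, and genes with at least 1 TPM in at least 3 libraries were kept (12938). log2(scaled TPM + 1) was fitted by group in limma 3.58.1 (R 4.3.3) with an intensity trend over all 10 libraries, with Benjamini-Hochberg adjustment over all genes. A pseudocount of 1 understates fold changes of low genes. The study's own count model could not be used on TPM. Alternatives were TPM without factors, quantile normalization, pseudocounts of 0.1 and 5, no filter and a filter at 5 TPM, a fit over the compared groups, array weights, a replicate block, and each library left out.

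The genes, the further cell cycle lists and the marker lists were chosen with earlier results of these data known. All 36 genes could be named by level; fold changes were given for genes past the threshold or, failing that, the 4 of lowest p in each direction, and the 4 of lowest p against WT MI for each further list. Gene names and coordinates are those of the tables, and Python 3.11.15 with pandas 2.3.3 was used. The orientation of promoter windows was checked by finding their last 30 bases in a GENCODE transcript, which succeeded for 26 of 31. Trac, Trbc1 and Trbc2 had no entry in the tables.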

Additional observations from a re-analysis of the deposited data

Results flagged for a closer look

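Within Foxp3DTR MI, the only group of 4 libraries, the lowest library stood apart from the others for 2 of 37 values examined, the 36 genes and their sum, by Dixon's gap criterion at the 95% level. Chance alone marks about 1 in 20 such values. Ccna2, which codes for cyclin A2, was at 38.1 scaled TPM in replicate 3, while the nearest library was at 80.5. Cenpa, the centromere histone, was at 22.9 in replicate 3, while the nearest was at 52.2. In both cases the library apart was replicate 3, which was also the lowest of its group for the other 34 genes. The genes are measured in the same libraries, so these values are not separate observations.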

How the results depend on the processing

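None of the 36 genes passed an adjusted p of 0.05 in Foxp3DTR MI against WT MI or in WT MI against WT sham, under any of the 19 alternatives, with the lowest adjusted p between 0.0653 and 0.389 in the first and between 0.609 and 1.00 in the second. In Foxp3DTR MI against WT sham, leaving out 1 library gave between 0 and 15 genes past the threshold, the 15 without WT sham replicate 3, where 3.23% of all genes were called higher, and no other alternative gave any. Without 1 library, the median log2 fold change of the 36 genes ranged from 0.67 to 1.57, from -0.097 to 0.79 and from 1.22 to 1.84 in these comparisons, and under the other alternatives from 0.78 to 1.27, from 0.18 to 0.40 and from 1.1 to 1.65. Without the library factor the median of all genes moved to 0.22, -0.17 and 0.047, against which the medians of the 36 genes, 1.27, 0.21 and 1.53, are to be read, and the calls over all genes in Foxp3DTR MI against WT MI went from 89 higher and 56 lower to 488 higher and 39 lower. With the replicate block the medians of the 36 genes were 1.1, 0.38 and 1.48, and 0 of the 36 were called. Over all genes, 68 were then called higher and 13 lower in Foxp3DTR MI against WT MI. The numbers were not taken to pair the samples, because the labels do not say that they do. Deviations from the group means correlated between -0.19 and 0.19 in 8 pairs of the same number, over 0.1 in 1 pair. In pairs of different number they correlated between -0.20 and 0.18. With 3 or 4 libraries a group, this cannot exclude pairing.

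In WT MI against WT sham, all 5 negative fold changes turned positive without WT MI replicate 3, Kif4 to 0.10, Kif23 to 0.019, Ccnb1 to 0.27, Cdc20 to 0.27 and Kif2c to 0.48, and some turned under other alternatives, such as Kif23 to 0.13 without WT sham replicate 2, and Cdc20 to 0.24 without WT sham replicate 3. Without WT MI replicate 2, Kif4, Kif23, Ccnb1 and Cdc20 stood at their lowest, -0.85, -0.41, -0.75 and -0.76. The cause was not tested. Of 437 fold changes of single genes under alternatives, Kif2c not among them, 364 kept direction and side of the threshold, 6 turned, 63 fell short of a threshold passed before, all of them among Camp, Ngp, S100a9, Klrk1, Cd79b and Rbl1, and 4 came past it, these being Anln, Top2a, Bub1 and Kif11 without WT sham replicate 3. With 3 or 4 libraries a group, a median SE of 0.49 in WT MI against WT sham, and library medians with a pooled SD of 0.68 on the log2 scale within groups, differences of the size seen between WT MI and WT sham were not detectable.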
